A study of Mus musculus with 26 samples.

Results

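The genes described here are 10 members of the class I antigen presentation pathway, *B2m*, *H2-K1*, *H2-D1*, *Tap1*, *Tap2*, *Tapbp*, *Psmb8*, *Psmb9*, *Psmb10*, and *Nlrc5*, chosen by name out of 52962 gene rows. All 10 passed the filter on low counts, which left 15402 genes for testing. Their mRNA was measured by RNA sequencing in immortalized mouse brown preadipocytes, in 26 libraries of 9 groups, with 3 dishes per group and 2 dishes of ∆CT cells with insulin. The cells were derived from the brown fat of newborn mice with floxed insulin receptor (IR) and IGF1R genes and immortalized with SV40 T-antigen, and in all of them, the controls included, adenoviral Cre had inactivated both genes. DKO cells carry an empty vector. The other lines stably carry a FLAG-tagged human IR (B isoform) from a pBabe retrovirus, which was the intact receptor (IR), a receptor with the kinase-dead K1030R substitution (K1030R), a receptor without the last 79 amino acids (∆CT), or a receptor that ends after 36 intracellular juxtamembrane amino acids and so has no kinase domain or C-terminus (JMO). Every dish was starved of serum for 6 h, and was then left in the basal state or given 100 nM insulin for 15 min, and DKO cells were left in the basal state. The comparison of lines asks which parts of the receptor go along with a change in expression, and the comparison with insulin asks whether the ligand adds to it. Each receptor is represented by 1 transduced line, so the receptor and other properties of its line cannot be told apart, and the p-values measure the spread between dishes of a line.

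Class I molecules show peptides from inside the cell to cytotoxic T cells. Proteasomes cut proteins into peptides, and in the immunoproteasome the inducible catalytic subunits encoded by *Psmb8*, *Psmb9*, and *Psmb10* take the places of the constitutive ones. The TAP transporter, a dimer of the *Tap1* and *Tap2* products, moves peptides into the endoplasmic reticulum, where tapasin (*Tapbp*) holds it beside empty class I molecules. Class I molecules consist of a heavy chain, such as H2-K1 or H2-D1, and β2-microglobulin (*B2m*), and NLRC5 is the transactivator of class I genes. Nearly all nucleated cells, preadipocytes included, make class I molecules, and interferons raise the genes of the pathway together.

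Total counts ran from 17228982 to 24694828 per library, and the biological coefficient of variation of the fit was 4.44%. Replicate dishes differed by more than counting noise in all 25 pairs of the same group, with a chi-square of 2.81 to 22.2 per degree of freedom, so none was counted as a repeat of another. In the basal groups, *Insr* mRNA was at 23.8 CPM (counts scaled to a common library size) in DKO cells and 67.7 to 78.4 CPM in the receptor lines, and *Igf1r* was at 27.1 to 35.1 CPM, so the summed counts per gene did not mark the Cre deletion, and which exons they cover is not given in the sources used here. The paper itself reports that neither receptor was detected in DKO cells as mRNA, by quantitative PCR, or as protein. The added receptors are human, whereas reads were assigned to mouse transcripts. Of 16 markers of preadipocytes and mesenchymal cells, 12 were above 0.5 CPM, with *Pdgfrb* at 533 to 639 CPM, whereas *Ebf2*, *Zfp423*, *Prdm16*, and *Dlk1* stayed at or below 0.403 CPM in every dish. Of 8 mature adipocyte genes, *Cidec* and *Lep* had 0 counts, *Ucp1* 1, *Adipoq* 3, *Cidea* 5, and *Plin1* 60 in all 26 libraries together, while *Lipe* was at 10.2 to 15.5 CPM and *Fabp4* at 0.444 to 4.76 CPM. *Fabp4* moved with the members, with log2 fold changes against DKO of -1.79 in IR and -1.50 in ∆CT cells (both called, edgeR adjusted p of 7.40e-05 and 0.00140, by the test described with *H2-K1*), -0.85 in K1030R, and 0.83 in JMO cells (neither called), and its part in the results was not tested. The summed level of 11 leukocyte and macrophage markers moved with the members in the basal state, with 14.5 to 17.1 CPM in DKO, 8.50 to 10.4 CPM in IR, 8.33 to 8.56 CPM in K1030R, 8.16 to 8.49 CPM in ∆CT, and 13.2 to 15.3 CPM in JMO cells. Most of that sum was *Lyz2* and *Cd68*. *Lyz2* was called lower than DKO in K1030R (log2 fold change -1.15, edgeR adjusted p = 9.42e-05) and ∆CT cells (-1.17, 3.80e-05) but not in IR (-0.77) or JMO cells (-0.12), whereas *Cd68* was called in no line and its log2 fold changes ran from -0.69 to -0.56 over the 4 lines, JMO included. The defining leukocyte gene *Ptprc* was at no more than 0.399 CPM, *Adgre1* had 0 counts, and *Tyrobp* and *Laptm5* had 1 count each. The summed level of the 16 preadipocyte markers moved the other way, with 6352 to 6578 CPM in DKO and 6611 to 6773 CPM in JMO cells and 9629 to 11398 CPM in the basal dishes of the other lines, most of it *Col1a1*, and its part in the results was not tested. The list was not uniform. *Ly6a* was called lower than DKO in all 4 receptor lines, with log2 fold changes of -3.33 (IR), -3.67 (K1030R), -3.96 (∆CT), and -2.06 (JMO) by edgeR. *Thy1* and *Cd34* went the other way, and both were called higher than DKO in IR (1.72 and 1.81) and K1030R cells (2.12 and 1.62). *Thy1* was also the 1 marker of the list called higher in JMO cells (1.99), so it did not follow the sum. In these cultures, fewer cells with a transcript and less transcript per cell cannot be told apart.

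By the GRCm38 annotation, 7 of the 10 genes lie on chromosome 17 in the major histocompatibility complex. These are *Tapbp* (chr17:33915899-33929292, plus strand), *H2-K1* (chr17:33996017-34000347, minus strand), *Psmb9* (chr17:34181987-34187764, minus strand), *Tap1* (chr17:34187553-34197225, plus strand), *Psmb8* (chr17:34197721-34201454, plus strand), *Tap2* (chr17:34203527-34216321, plus strand), and *H2-D1* (chr17:35262730-35267499, plus strand). *B2m* is on chromosome 2 (chr2:122147686-122153083, plus strand), and *Psmb10* (chr8:105935735-105938444, minus strand) and *Nlrc5* (chr8:94434356-94527272, plus strand) are on chromosome 8. All 10 are protein-coding. *Tap1* and *Psmb9* overlap head to head by 212 bases, and *B2m* lies within *Patl2* on the opposite strand. *Patl2* was at no more than 0.0510 CPM in any dish.

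Because these genes moved together, their promoters are shown as far as the RefSeq table of windows (250 bases before to 50 after each start, GRCm38.p6) holds them, which is for 8 of the 10 genes. The stretches below are written 5′ to 3′ on the strand of the gene, in lower case with motif matches in capitals. The motifs, searched on both strands, were the interferon-stimulated response element core (GAAA, any 2 bases, GAAA), the STAT site (TTC, any 3 bases, GAA), the κB site by name, the CCAAT box, and the cyclic AMP response element core TGACG. The *B2m* stretch (chr2:122147537-122147696, plus strand) holds an interferon-stimulated element core, a κB site, TGACG, and a reversed CCAAT box (ATTGG). The stretches of *H2-K1* (chr17:34000353-34000521, minus strand) and *H2-D1* (chr17:35262860-35263028, plus strand) are shown because they are nearly alike, with 155 of 169 bases identical (91.7%), and both hold 2 overlapping κB matches, TGACG, and ATTGG at the same places. The *Tap1* window (chr17:34187306-34187605, plus strand) is shown because *Psmb9* starts 226 bases away on the other strand, so that 275 bases belong to both windows. The *Psmb8* stretch (chr17:34198078-34198127, plus strand) holds the STAT site.
B2m: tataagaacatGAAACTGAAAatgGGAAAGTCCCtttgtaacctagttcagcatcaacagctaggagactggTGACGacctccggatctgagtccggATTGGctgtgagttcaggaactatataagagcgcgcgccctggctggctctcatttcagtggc
H2-K1: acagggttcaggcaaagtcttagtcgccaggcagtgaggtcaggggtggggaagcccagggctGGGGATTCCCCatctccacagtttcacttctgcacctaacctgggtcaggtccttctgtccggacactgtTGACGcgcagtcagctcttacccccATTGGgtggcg
H2-D1: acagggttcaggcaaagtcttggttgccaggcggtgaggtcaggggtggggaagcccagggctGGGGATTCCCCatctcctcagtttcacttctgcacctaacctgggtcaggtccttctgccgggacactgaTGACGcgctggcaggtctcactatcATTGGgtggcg
Tap1: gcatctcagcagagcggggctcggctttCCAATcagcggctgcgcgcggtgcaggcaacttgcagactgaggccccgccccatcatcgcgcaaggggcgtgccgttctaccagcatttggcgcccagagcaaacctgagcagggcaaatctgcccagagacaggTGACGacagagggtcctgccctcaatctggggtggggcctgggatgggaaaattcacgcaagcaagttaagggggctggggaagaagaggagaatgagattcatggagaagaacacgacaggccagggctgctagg
Psmb8: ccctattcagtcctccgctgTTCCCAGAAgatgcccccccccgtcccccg

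Among all 32851 promoter windows of this length, 3.44% hold the interferon-stimulated element core, which was found in *B2m* only of the 8 genes. The STAT site is in 8.3% of windows and was found in *Psmb8* only. The κB site is in 8.46% of windows and was found in *B2m*, *H2-K1*, and *H2-D1*. The CCAAT box is in 37.4% of windows and was found in 6 of the 8 genes, and TGACG is in 20.8% and was found in 5 of the 8, namely *B2m*, *H2-K1*, *H2-D1*, *Tap1*, and *Psmb9*. The matches of *Psmb9* are the same bases as those of *Tap1*, read from the other strand. These matches are letters in a window and do not show binding. Only the exact patterns given were searched, so a motif that was not found does not show that a promoter lacks such an element.

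In the basal state, the mean level of each of the 10 members was lower in IR, K1030R, and ∆CT cells than in DKO and JMO cells, although the difference of *Psmb10* between IR and DKO cells passed no test. Of the 10, *H2-K1* changed most against DKO in each of the 3 lines. *H2-K1* was at 190, 198, and 208 CPM in the 3 DKO dishes and at 243, 239, and 254 CPM in JMO cells. It was at 37.9, 39.3, and 33.9 CPM in IR cells, 28.1, 30.1, and 28.5 CPM in K1030R cells, and 25.04, 22.7, and 29.5 CPM in ∆CT cells. Every DKO and JMO dish was thus far above every dish of the lines with a receptor that keeps the kinase domain. Against DKO, the log2 fold change of *H2-K1* was -2.43 ± 0.0599 (SE) for IR, -2.78 ± 0.0638 for K1030R, and -2.95 ± 0.0643 for ∆CT cells, with adjusted p of 3.66e-20, 3.03e-21, and 4.45e-22 by edgeR's glmTreat, which tests against a minimum fold of 1.5. This left *H2-K1* in IR cells at 18.6% of its DKO level. A gene is referred to as called where this adjusted p over all 15402 genes was below 0.05.

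**Figure D1:**
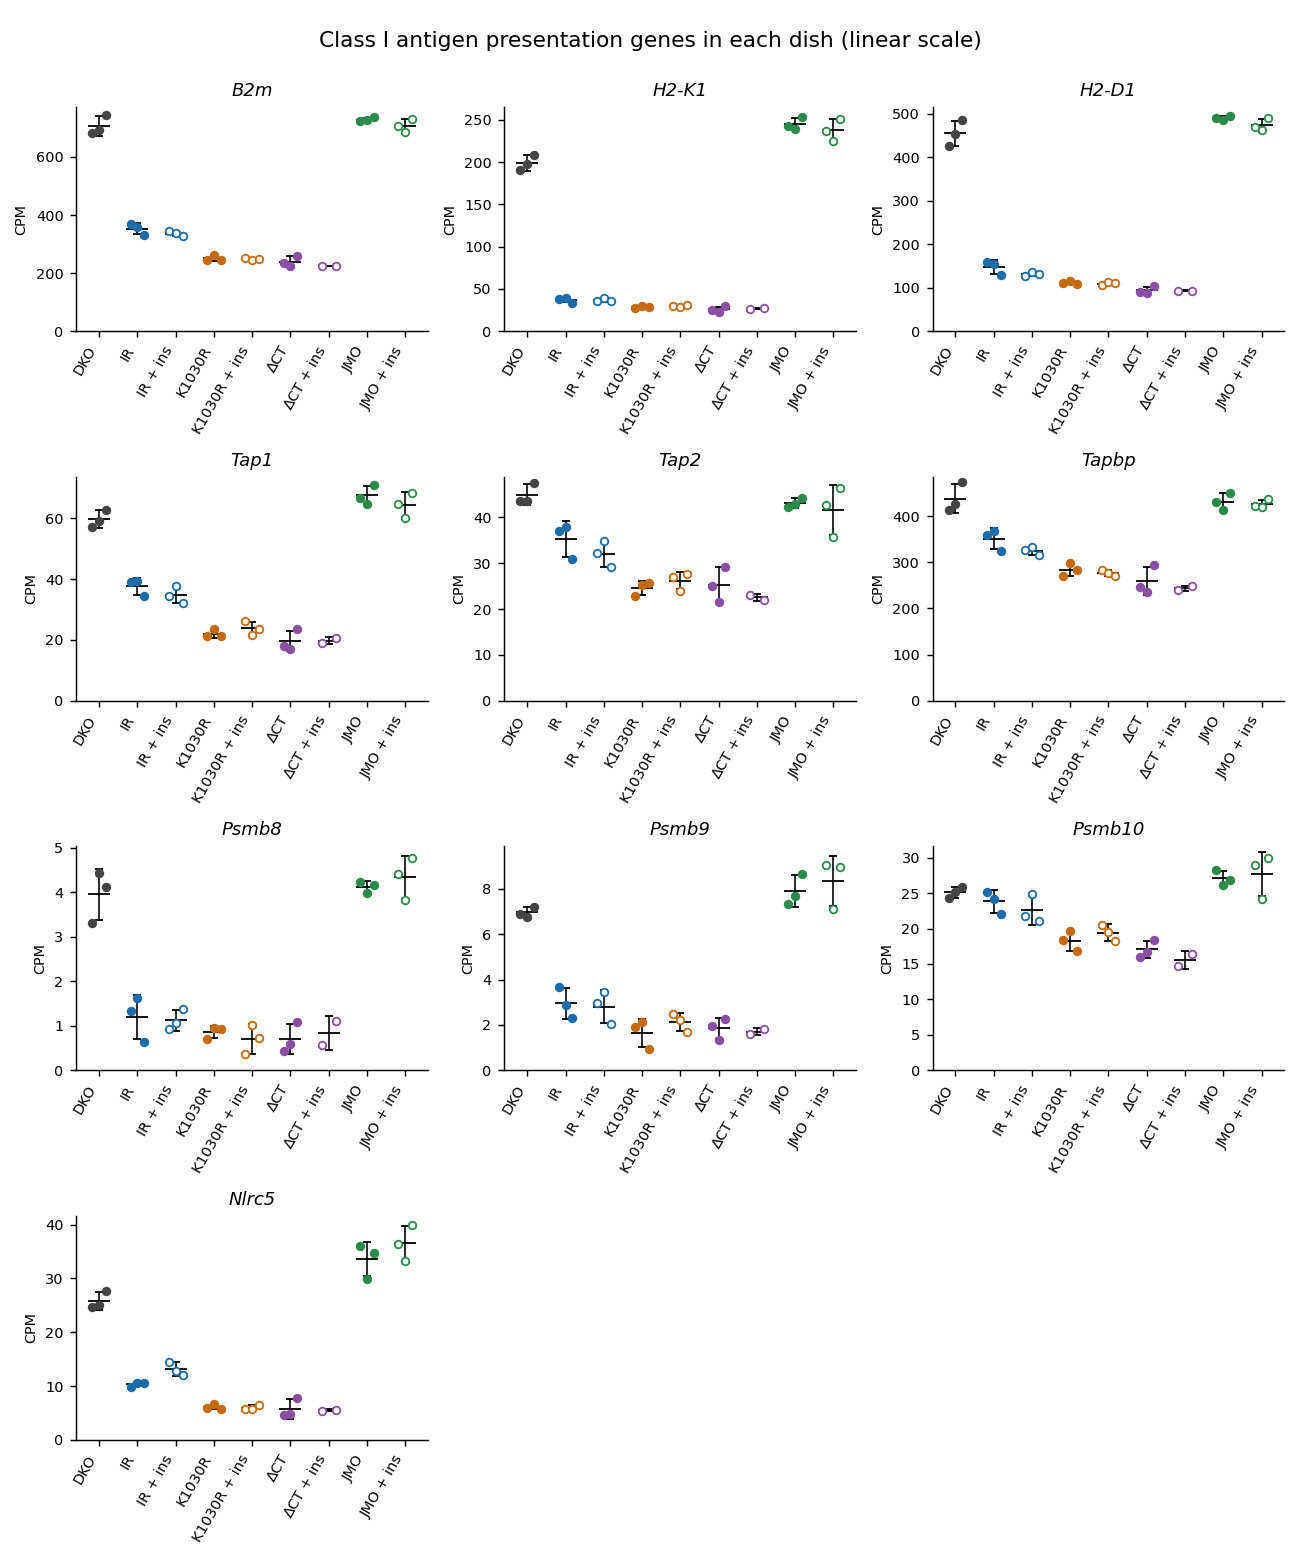
Level of each of the 10 genes in every dish, in CPM on a linear axis from 0, with filled circles for basal and open circles for insulin-treated (+ ins) dishes, and the mean ± SD of each group in black. *H2-K1*, *H2-D1*, and *B2m* of every DKO and JMO dish lie above every dish of the other lines, while *Psmb10* of IR overlaps DKO in the basal state.

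*H2-D1*, the other classical heavy chain measured, was at 455 ± 29.1 CPM (mean ± SD, n = 3) in DKO and 491 ± 4.09 CPM in JMO cells, against 147 ± 16.0 CPM in IR, 111 ± 3.07 CPM in K1030R, and 94.0 ± 7.77 CPM in ∆CT cells. It was called lower than DKO in all 3 of these lines, with log2 fold changes of -1.63 ± 0.0596 (SE), -2.03 ± 0.0608, and -2.28 ± 0.0611 and edgeR adjusted p of 2.72e-13, 2.32e-15, and 1.27e-16. *H2-K1* and *H2-D1* share sequence, with 23.3% and 27.5% of the 31-base words of their principal transcripts also found in other genes. Over all transcripts, 11.1% of the words of *H2-K1* occur in *H2-D1* and 13.8% of those of *H2-D1* in *H2-K1*. How reads were divided between them is therefore uncertain, and the counts rest on the reference alleles, since the strain of the mice is not given in the sources used here.

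*B2m*, the invariant light chain, followed the same order over a smaller range. The DKO dishes were at 682, 691, and 745 CPM and the JMO dishes at 722, 727, and 736 CPM. The IR dishes were at 369, 358, and 331 CPM, the K1030R dishes at 244, 264, and 246 CPM, and the ∆CT dishes at 234, 223, and 259 CPM. DKO and JMO dishes overlapped, and the others lay below both. The log2 fold change against DKO was -1.001 ± 0.0433 (SE) for IR (edgeR adjusted p = 3.83e-10), -1.49 ± 0.0437 for K1030R (4.53e-18), and -1.56 ± 0.0437 for ∆CT cells (4.30e-19). No 31-base word of *B2m* occurs in another gene.

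Of the genes for peptide transport, *Tap1* had the largest differences against DKO. It was at 57.1, 59.1, and 62.8 CPM in DKO, 66.8, 64.7, and 71.0 CPM in JMO, 38.9, 39.5, and 34.5 CPM in IR, 21.1, 23.7, and 21.4 CPM in K1030R, and 18.2, 17.2, and 23.5 CPM in ∆CT dishes. IR cells lay between the other lines with no overlap on either side. *Tap1* was called lower than DKO in K1030R cells (log2 fold change -1.44 ± 0.0904 SE, edgeR adjusted p = 1.15e-08) and in ∆CT cells (-1.61 ± 0.0912, 4.09e-10). In IR cells its log2 fold change of -0.67 ± 0.0818 was not called (adjusted p = 0.542), but differed from 0 by edgeR's quasi-likelihood F test without a minimum fold (adjusted p = 3.09e-07).

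*Tap2* and *Tapbp* had smaller differences, and their IR dishes too lay below every DKO dish and above every K1030R and ∆CT dish. *Tap2* was at 44.9 ± 2.31 CPM (SD, n = 3) in DKO, 43.1 ± 1.03 CPM in JMO, 35.3 ± 3.87 CPM in IR, 24.6 ± 1.57 CPM in K1030R, and 25.2 ± 3.81 CPM in ∆CT cells. Its log2 fold change against DKO was -0.87 (95% confidence interval -1.09 to -0.65, edgeR adjusted p = 0.0302) in K1030R and -0.84 (-1.05 to -0.62, adjusted p = 0.0475) in ∆CT cells, and both calls were lost with limma voom TREAT (adjusted p of 0.0880 and 0.103) and with DESeq2 (0.0689 and 0.164). *Tapbp* was at 438 ± 31.4 CPM in DKO, 432 ± 18.5 CPM in JMO, 351 ± 22.7 CPM in IR, 284 ± 13.9 CPM in K1030R, and 259 ± 30.9 CPM in ∆CT cells. It was called in ∆CT cells alone (log2 fold change -0.76, edgeR adjusted p = 0.0325), a call that was lost with limma voom TREAT (0.0539) and DESeq2 (0.181). In IR cells the log2 fold changes of *Tap2* and *Tapbp* were -0.35 and -0.32, with edgeR adjusted p of 0.00552 and 0.000388 without a minimum fold. Of the 31-base words of *Tapbp*, 23.7% are antisense to other genes, and of those of *Tap2*, 15.5%. Of those of *Psmb9*, 13.8% are antisense to other genes. The reads were reverse-stranded, but whether the counting used strand is not given in the sources used here, so that reads of these genes and their antisense partners may not be told apart. The antisense partner *Gm19412* of *Tapbp* was at 3.65 to 5.90 CPM and the partners *Gm20496* and *Gm15821* of *Tap2* at no more than 0.109 CPM. The partner of *Psmb9* is *Tap1*, which was at 17.2 to 71.0 CPM over all dishes, where *Psmb9* was at 0.931 to 9.04 CPM.

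Among the inducible proteasome subunits, *Psmb8* and *Psmb9* had the fewest counts and the largest fold changes. *Psmb8* was at 3.32, 4.43, and 4.12 CPM in DKO, 4.23, 3.98, and 4.16 CPM in JMO, 1.32, 1.63, and 0.642 CPM in IR, 0.710, 0.956, and 0.931 CPM in K1030R, and 0.427, 0.599, and 1.09 CPM in ∆CT dishes. The DKO and JMO dishes overlapped, as did those of the other 3 lines. The log2 fold change of *Psmb8* against DKO was -1.73 ± 0.264 (SE) for IR, -2.18 ± 0.292 for K1030R, and -2.51 ± 0.304 for ∆CT cells, and all 3 were called, with edgeR adjusted p of 0.000200, 7.39e-06, and 4.68e-07. *Psmb9* was at 6.96 ± 0.227 CPM (SD, n = 3) in DKO, 7.90 ± 0.697 CPM in JMO, 2.96 ± 0.679 CPM in IR, 1.65 ± 0.629 CPM in K1030R, and 1.86 ± 0.471 CPM in ∆CT cells. It was called lower than DKO in IR (log2 fold change -1.23, edgeR adjusted p = 0.00370), K1030R (-2.09, 3.30e-07), and ∆CT cells (-1.91, 1.18e-06).

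*Psmb10*, the third inducible subunit, differed least. It was at 24.3, 25.1, and 25.9 CPM in DKO and 25.1, 24.2, and 22.1 CPM in IR dishes, which overlapped. It was at 18.4, 19.6, and 16.8 CPM in K1030R, 16.0, 16.7, and 18.4 CPM in ∆CT, and 28.3, 26.2, and 26.9 CPM in JMO dishes, so K1030R and ∆CT lay below the DKO dishes and JMO above them. None of the 3 lines was called against DKO. The log2 fold change was -0.08 (95% confidence interval -0.23 to 0.08) in IR, -0.46 (-0.62 to -0.30) in K1030R, and -0.56 (-0.72 to -0.40) in ∆CT cells, and without a minimum fold the last 2 differed from DKO (edgeR adjusted p of 1.14e-05 and 3.04e-07).

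*Nlrc5*, the transactivator, was at 24.7, 25.1, and 27.6 CPM in DKO and 36.0, 29.9, and 34.7 CPM in JMO dishes. It was at 9.86, 10.5, and 10.6 CPM in IR, 5.98, 6.59, and 5.74 CPM in K1030R, and 4.65, 4.74, and 7.87 CPM in ∆CT dishes. The 5 lines thus fell into the same order as for *B2m*, and only K1030R and ∆CT overlapped. Its log2 fold change against DKO was -1.33 ± 0.113 (SE) for IR, -2.08 ± 0.129 for K1030R, and -2.18 ± 0.129 for ∆CT cells, with edgeR adjusted p of 1.26e-06, 3.66e-11, and 8.21e-12.

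**Figure D2:**
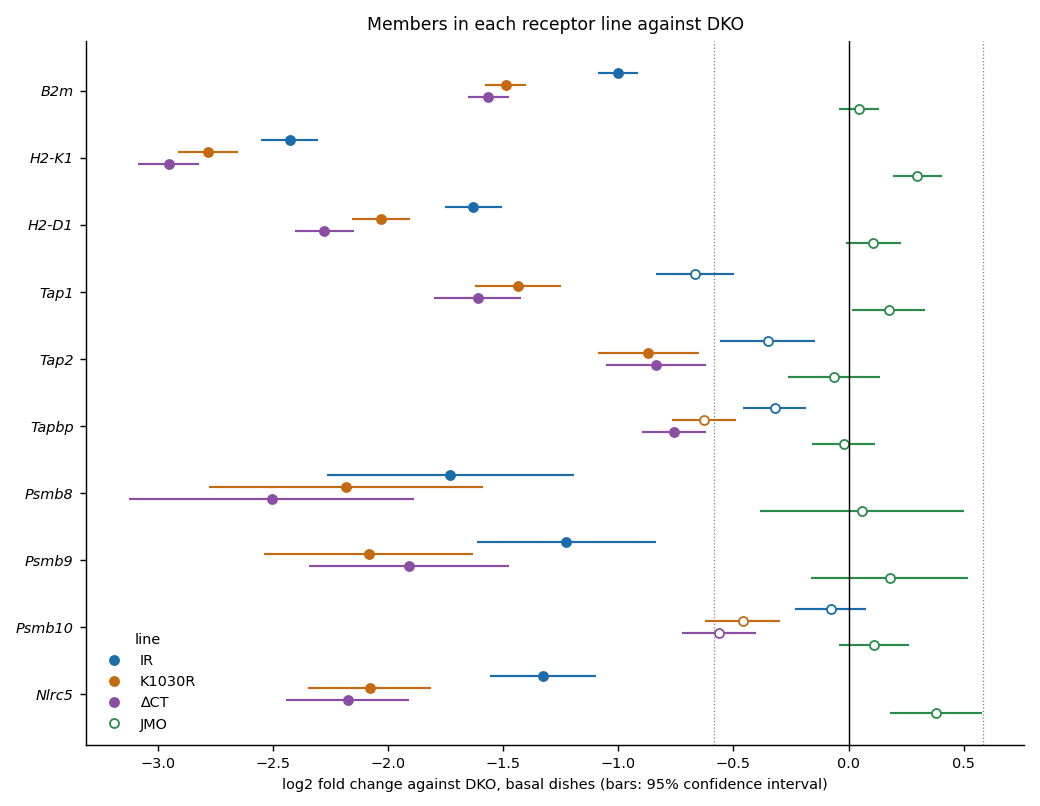
Log2 fold change of each gene against DKO in the 4 receptor lines, basal dishes, with 95% confidence intervals, filled circles for called genes, and dotted lines at a 1.5-fold difference. All 10 values of IR, K1030R, and ∆CT lie below 0, from -2.95 for *H2-K1* in ∆CT to -0.08 for *Psmb10* in IR, and the 10 values of JMO lie between -0.06 and 0.38.

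Counted over the members, 6 of 10 were called lower in IR cells than in DKO cells (*B2m*, *H2-K1*, *H2-D1*, *Psmb8*, *Psmb9*, and *Nlrc5*), where 3.29% of all genes tested were called lower. In K1030R cells 8 of 10 were called lower, with *Tap1* and *Tap2* added, beside 3.25% of all genes. In ∆CT cells 9 of 10 were called lower, with *Tapbp* added, beside 3.91% of all genes. The median log2 fold change of the members was -1.11 for IR cells and -1.76 for both K1030R and ∆CT cells, and that of all genes was 0.01 in each. The 3 comparisons share the DKO dishes and are not independent of each other. Without a minimum fold, 9 of 10 members differed in IR cells, where 24.1% of all genes were lower, and 10 of 10 in K1030R cells (20.4% of all genes) and in ∆CT cells (22.9%). The member that did not differ in IR cells was *Psmb10* (edgeR adjusted p = 0.428).

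JMO cells, whose receptor ends in the juxtamembrane region, did not show these differences. None of the 10 members was called against DKO in either direction by edgeR's glmTreat, by limma voom TREAT, or by DESeq2, beside 2.11% of all genes called by edgeR. At an unadjusted p below 0.05 without a minimum fold, 3 members differed, beside 42.3% of all genes. The log2 fold changes lay between -0.06 (*Tap2*) and 0.38 (*Nlrc5*), and over the 10 genes the 95% confidence intervals reached from -0.38 to 0.58, the outer bounds being those of *Psmb8* and *Nlrc5*. Without a minimum fold, *H2-K1* (log2 fold change 0.30 ± 0.0510 SE, edgeR adjusted p = 4.02e-05) and *Nlrc5* (0.38 ± 0.0972, adjusted p = 0.00317) were higher in JMO than in DKO cells, 2 of 10 members beside 16.9% of all genes. The dishes of the 2 lines did not overlap for these genes.

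Between receptor lines, 7 of 10 members were called higher in JMO than in IR cells (2.65% of all genes), 7 in JMO than in K1030R cells (2.79%), and 7 in JMO than in ∆CT cells (3.42%). The 7 were the same in each, namely *B2m*, *H2-K1*, *H2-D1*, *Tap1*, *Psmb8*, *Psmb9*, and *Nlrc5*. The call of *Tap1* between JMO and IR cells (edgeR adjusted p = 0.0112) was lost without IR dish 3 (0.0844) or JMO dish 3 (0.0575), which left 6. The differences between JMO and IR cells reached a log2 value of 2.73 ± 0.0595 (SE) for *H2-K1* (edgeR adjusted p = 1.90e-21) and were 1.71 ± 0.110 for *Nlrc5* (9.44e-10) and 1.05 ± 0.0433 for *B2m* (7.77e-11). When IR, K1030R, and ∆CT cells were averaged and set against the average of DKO and JMO cells, 7 of 10 members were called lower, beside 3.63% of all genes. The log2 difference was -2.87 for *H2-K1*, -2.17 for *Psmb8*, -2.05 for *Nlrc5*, -2.03 for *H2-D1*, -1.83 for *Psmb9*, -1.37 for *B2m*, and -1.32 for *Tap1*. The 3 members not called had differences of -0.65 (*Tap2*), -0.56 (*Tapbp*), and -0.42 (*Psmb10*).

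Levels also differed between IR cells and the 2 lines with a mutated receptor that keeps the kinase region. None of the 10 members was called between K1030R and IR cells by edgeR's glmTreat, limma voom TREAT, or DESeq2, beside 1.04% of all genes called by edgeR. At an unadjusted p below 0.05 without a minimum fold 9 members differed, beside 38.3% of all genes. With adjusted p, the same test had 9 of 10 lower in K1030R cells, where 16.3% of all genes were lower, and the exception was *Psmb8* (log2 fold change -0.45, 95% confidence interval -1.12 to 0.21). Values for the 10 members ran from -0.31 (*Tapbp*) to -0.86 (*Psmb9*), with a median of -0.47. Against IR cells, ∆CT cells had 1 member called lower, *Tap1* (log2 fold change -0.94 ± 0.0944 SE, edgeR adjusted p = 0.0161), beside 0.675% of all genes. Leaving out IR dish 1, IR dish 2, ∆CT dish 1, or ∆CT dish 2 ended this call (adjusted p of 0.0931, 0.0875, 0.168, and 0.208). Without ∆CT dish 3, *Nlrc5* was called as well (-1.13, adjusted p = 0.000798). Without a minimum fold, 9 of 10 members were lower in ∆CT than in IR cells (14.8% of all genes), again with the exception of *Psmb8* (-0.78, adjusted p = 0.0868).

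Between ∆CT and K1030R cells, none of the 10 members was called by edgeR's glmTreat, limma voom TREAT, or DESeq2, beside 0.039% of all genes called by edgeR, and 2 were at an unadjusted p below 0.05 without a minimum fold, beside 15.5% of all genes. The 1 member that differed after adjustment was *H2-D1*, which was lower in ∆CT cells (log2 fold change -0.25, 95% confidence interval -0.38 to -0.11, edgeR adjusted p = 0.0330), beside 3.43% of all genes. The intervals of the other 9 reached from -1.06 to 0.70, the outer bounds being those of *Psmb8* and *Psmb9*. The interval was -1.06 to 0.41 for *Psmb8* and -0.35 to 0.70 for *Psmb9*.

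The inducible proteasome subunits were also set against the constitutive subunits they replace in the same library, a ratio that does not depend on how libraries are scaled. The ratios are of CPM without correction for transcript length, so they serve to compare lines and are not relative amounts of transcript. *Psmb8* was at 9.23 ± 1.35% (SD, n = 3) of *Psmb5* in DKO, 10.2 ± 1.05% in JMO, 2.61 ± 0.857% in IR cells, 2.09 ± 0.374% in K1030R cells, and 1.58 ± 0.855% in ∆CT cells. *Psmb9*, whose reads may include those of *Tap1* as given above, was at 8.20 ± 0.338% of *Psmb6* in DKO, 9.32 ± 0.910% in JMO, 3.32 ± 0.596% in IR cells, 1.86 ± 0.747% in K1030R cells, and 2.02 ± 0.529% in ∆CT cells. For both pairs, the dishes of IR, K1030R, and ∆CT lay below every DKO dish. *Psmb10* was at 19.2 ± 1.33% of *Psmb7* in DKO, 21.6 ± 1.34% in JMO, 18.7 ± 0.473% in IR cells, 14.3 ± 1.87% in K1030R cells, and 12.7 ± 1.79% in ∆CT cells, and the IR and DKO dishes overlapped. With 3 dishes against 3, an exact two-sided permutation test cannot give a p below 0.1. It gave this smallest p for 9 of the 12 ratios compared with DKO (0.133 after Benjamini-Hochberg adjustment), and 0.5, 0.8, and 0.2 for *Psmb8* in JMO, *Psmb10* in IR, and *Psmb10* in JMO cells. Of the 9, the ratio of *Psmb9* to *Psmb6* in JMO cells was higher than in DKO cells (log2 difference 0.18), and the others were lower. The constitutive subunits *Psmb5*, *Psmb6*, and *Psmb7* had log2 fold changes of -0.09 to 0.12 against DKO in the 4 lines, and none was called by edgeR.

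**Figure D3:**
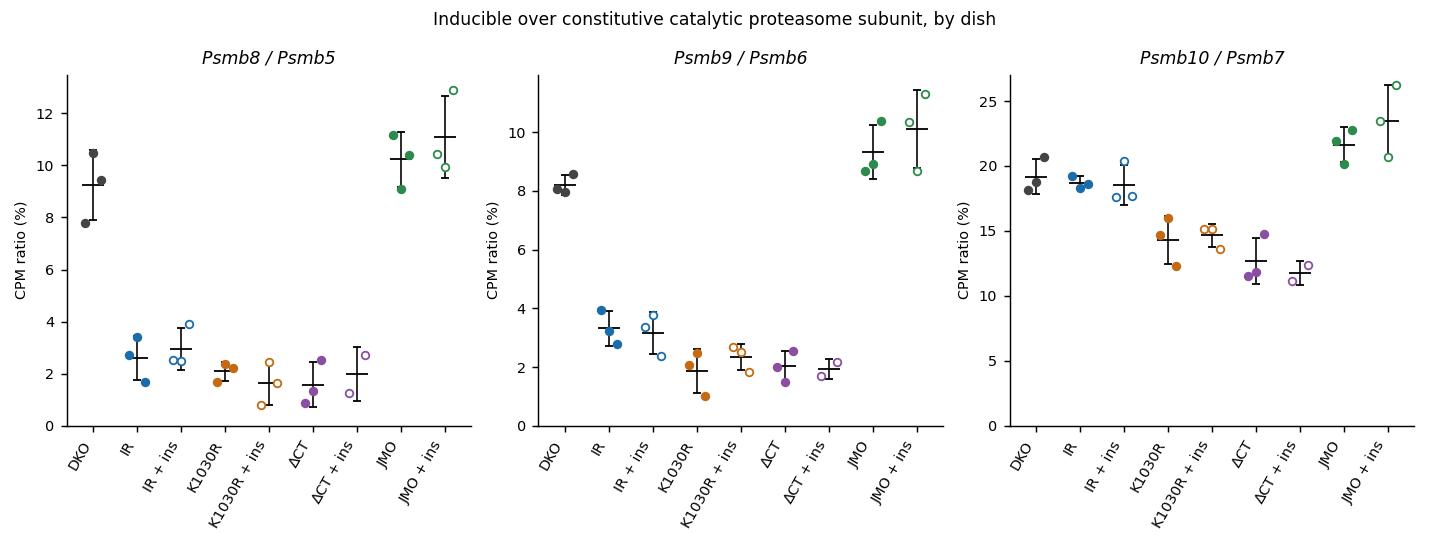
CPM of each inducible proteasome subunit as a percentage of its constitutive counterpart, by dish, on axes from 0, with filled circles for basal and open circles for insulin-treated (+ ins) dishes and the mean ± SD of each group in black. The first 2 ratios are 9.23% and 8.20% on average in DKO and 2.61% and 3.32% in IR cells, and the ratio of *Psmb10* to *Psmb7* is 19.2% and 18.7%.

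Per length of the principal transcript, *B2m* was the most abundant member, with 821 ± 39.9 CPM per kb (SD, n = 3) in DKO cells. *H2-D1* followed with 217 CPM per kb, *Tapbp* with 151, and *H2-K1* with 123. *Tap1*, *Psmb10*, and *Tap2* were at 20.2, 19.2, and 13.0 CPM per kb, and *Psmb9*, *Nlrc5*, and *Psmb8* at 5.15, 3.40, and 2.43 CPM per kb. The lengths are those of the annotation, and which transcripts the cells used was not tested.

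None of the 10 members was called after 15 min of insulin in any line, by edgeR's glmTreat, limma voom TREAT, or DESeq2. Of all genes, edgeR called 0.221% in the IR line, 0% in the K1030R line, 0.214% in the ∆CT line, and 0.039% in the JMO line. Without a minimum fold, again 0 of 10 members differed in each line, where 1.87%, 0.156%, 1.01%, and 0.364% of all genes did. At an unadjusted p below 0.05, 2 members differed in IR cells, beside 14.7% of all genes, and 0 in the others, beside 6.08% (K1030R), 9.59% (∆CT), and 7.01% (JMO) of all genes. One was *Nlrc5*, at 13.1 ± 1.30 CPM (SD, n = 3) with insulin against 10.3 ± 0.399 CPM without (log2 fold change 0.35, 95% confidence interval 0.10 to 0.60, edgeR adjusted p = 0.145), and the other was *H2-D1*, at 132 ± 4.81 against 147 ± 16.0 CPM (-0.15, -0.28 to -0.02, adjusted p = 0.242). The insulin effect on no member differed between IR cells and K1030R, ∆CT, or JMO cells (edgeR, 0 of 10 called or at an unadjusted p below 0.05 in each, 0 of 10 called by limma voom TREAT and DESeq2, beside 0.123%, 0%, and 0.117% of all genes called by edgeR and 7.86%, 3.67%, and 6.49% at an unadjusted p below 0.05).

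With insulin, *H2-K1* and *B2m* had the same order of lines as in the basal state, whereas the means of K1030R and ∆CT cells changed places for *Tap2*, *Psmb8*, and *Psmb9*. *H2-K1* was at 36.9 ± 1.71 CPM in IR, 29.7 ± 1.09 CPM in K1030R, 26.7 ± 0.542 CPM in ∆CT (n = 2), and 238 ± 13.0 CPM in JMO cells (n = 3 in the others). *B2m* was at 336 ± 9.15, 248 ± 3.90, 224 ± 0.325, and 707 ± 23.1 CPM in the same lines. Every JMO dish was above every IR, K1030R, and ∆CT dish for both genes, with insulin as without.

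Within some groups, the members also moved together from dish to dish. The third ∆CT dish was above its group mean for 10 of 10 members, by 0.27 on average on the log2 scale, where the mean over all genes was 0.02. The third IR dish was below its group mean for 9 of 10 members (mean -0.19, all genes 0.00), and all 10 were above the mean in DKO dish 3, K1030R dish 2, and JMO dish 3 with insulin. In other dishes the members were divided, with 4 to 6 of 10 above the group mean in all 3 K1030R dishes with insulin, IR dish 1 with insulin, and JMO dish 1 with and without insulin. Over the 26 libraries, the 45 pairs of members had a Pearson r of 0.82 to 0.996 with a median of 0.94, which includes the differences between lines. After the group means were taken away, the median r was 0.65 (0.09 to 0.91), given as a description, since the members of a library share its depth and scaling. *Irf7*, a transcription factor of interferon responses, was high in the same ∆CT dish, at 19.97, 19.0, and 38.5 CPM in ∆CT dishes 1, 2, and 3. What set this dish apart was not tested, and the labels name no batch.

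**Figure D4:**
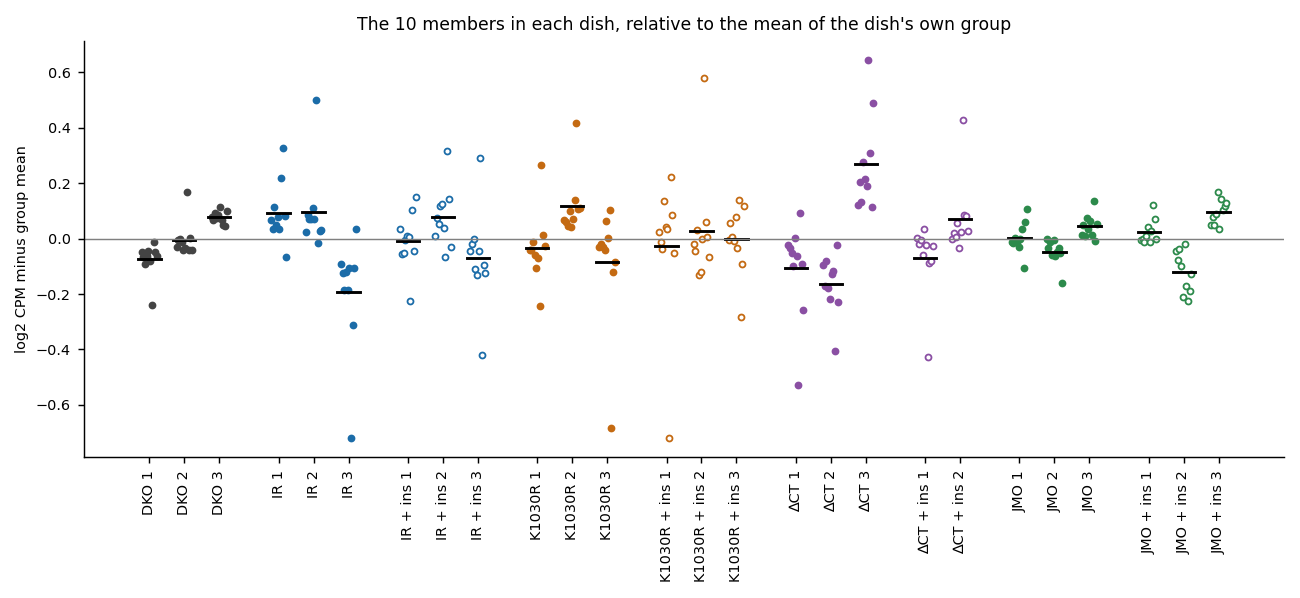
Log2 CPM of the 10 members in each of the 26 dishes relative to the mean of the dish's own group, with filled circles for basal and open circles for insulin-treated (+ ins) dishes and a black bar at the mean of the 10. In ∆CT dish 3 all 10 members lie above 0, with a mean of 0.27, and in IR dish 3 the mean is -0.19.

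Other genes of the pathway were taken from lists, and their values are log2 differences between the average of IR, K1030R, and ∆CT and that of DKO and JMO cells without insulin. All genes together had a median of 0.01 and 3.63% were called lower. Of 23 other class I heavy chains listed, 17 were tested, of which 10 were called lower and 0 higher, with a median log2 difference of -1.11. The 17, the 10, and the median include *H2-Q1*, whose passing of the filter depended on JMO cells, as given below. The log2 difference of *H2-Q4*, a nonclassical heavy chain, was -2.69 (edgeR adjusted p = 2.34e-31) and that of *H2-Q6* was -2.52 (1.06e-12), and the 10 also included *H2-T23*, *H2-T22*, and *H2-T10*. *H2-Q1* had 24 counts in the 3 DKO dishes, 38 in JMO, 6 in IR, 4 in ∆CT, and 0 in K1030R cells. It passed the filter through JMO dishes only, since it was at no more than 0.455 CPM in DKO dishes and 0.276 CPM in those of the other lines. *H2-Q1* is nevertheless among the 10 called lower, enters the list median, and is plotted with the list. JMO cells are part of that comparison and decided that it was tested, so its call is no support. Its counts are given as a description, and its fold is not interpreted. Genes of this family share sequence, and how reads were divided among them and *H2-K1* and *H2-D1* is uncertain, so the 10 calls may not be independent of each other.

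Genes for steps shared with other pathways were listed as well, and lists were not tested against each other. Of 13 genes for peptide trimming, loading, and quality control, 1 was called lower and 0 higher, with a median of 0.02. The 1 was *Erap1*, the aminopeptidase that trims class I peptides in the endoplasmic reticulum (-0.83, edgeR adjusted p = 2.41e-09), and its log2 fold changes against DKO were -0.71 (IR), -0.90 (K1030R), and -1.01 (∆CT), all called. The chaperone genes *Calr* (0.16) and *Canx* (0.18) and the tapasin relative *Tapbpl* (-0.18) were not called. Without a minimum fold, 6 of these 13 genes were higher and 5 lower, where 52.3% of all genes differed. Of 23 genes of the proteasome core, its activators, and its assembly factors, none was called in either direction by edgeR's glmTreat, with a median of 0.04, although 13 differed without a minimum fold, 7 of them higher and 6 lower, beside 52.3% of all genes. Among these were the subunits of the interferon-inducible activator, *Psme1* (-0.36, adjusted p = 6.59e-13) and *Psme2* (-0.36, 1.26e-14).

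Of 22 transcription factors of class I genes, 21 were tested, of which 3 were called lower and 0 higher, with a median of -0.05. They included *Irf7* (-1.96, edgeR adjusted p = 1.32e-09) and *Stat2* (-1.07, 7.24e-06), which act in interferon responses. *Irf1* (-0.11) and *Rfx5* (-0.31), which encodes a subunit of the complex that NLRC5 works through, were not called. By edgeR's F test without a minimum fold, 9 of the 21 factors were lower and 4 higher, beside 25.6% and 26.7% of all genes. *Irf1* was among the lower ones (adjusted p = 0.00208). Of 15 interferon receptors, ligands, and signaling genes, 11 were tested and 1 was called, *Usp18*, an inhibitor of type I interferon signaling (-1.38, edgeR adjusted p = 8.16e-07), and the list median was -0.22. Without a minimum fold, 8 of these 11 genes were lower and 1 higher, where 25.6% of all genes were lower and 26.7% higher. Of 10 class II genes, 3 passed the filter and 1 was called, the invariant chain *Cd74* (-1.57, adjusted p = 4.16e-15).

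**Figure D5:**
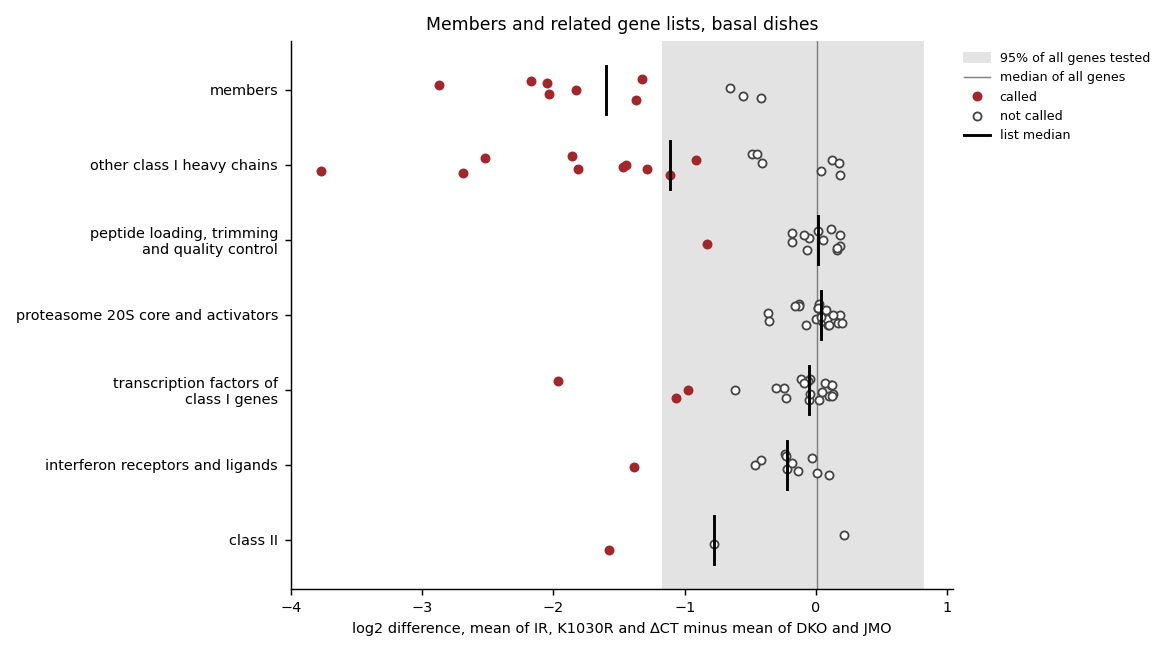
Log2 difference between averages (IR, K1030R, and ∆CT minus DKO and JMO cells) for the 10 members and for each tested gene of 6 related lists, with filled red circles for called genes, open circles for the others, black bars at list medians, and a grey band over the central 95% of all genes tested. The median is -1.60 for the members, -1.11 for the other heavy chains, and 0.04 for the proteasome core and activators. The other heavy chains include *H2-Q1*, which passed the filter through JMO dishes only and whose fold is not interpreted.

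Outside the lists, the 5 called genes whose 9 group means followed the mean profile of the members most closely were *Phf11d* (Pearson r = 0.994), *Tnfsf10* (0.993), *C1ra* (0.993), *Ddx60* (0.992), and *Lgals3bp* (0.992). Over the 26 libraries the same r was 0.98, 0.90, 0.99, 0.98, and 0.99. Their log2 differences between the 2 sets of lines were -2.41, -1.30, -1.33, -3.14, and -1.13. Each member's own r with the mean profile, of which it is a part, was 0.94 (*Psmb10*) to 0.998 (*B2m*). These coefficients describe 9 group means that come from 5 lines.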

How the data were processed

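According to the authors' methods, poly(A) RNA was made into libraries read as single-end, reverse-stranded reads, which were trimmed with fastp and assigned to transcripts of Ensembl mouse GRCm38 with kallisto, followed by tximport to give 1 value per gene. The versions of fastp and kallisto are not given in the sources used here. The deposited values are the authors' expected counts per gene, not scaled, of which 79.9% are exactly whole (no tolerance). All 26 columns carry a sample's label, and no library was left out.

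Counts were rounded, genes above 0.5 CPM in at least 4 libraries kept, and TMM factors used. A quasi-likelihood model (edgeR 4.0.16, R 4.3.3, glmQLFit with robust dispersion, 1 mean per group, all 26 libraries) was tested with glmTreat against a fold of 1.5, and with the quasi-likelihood F test without a minimum fold, in 18 comparisons, with Benjamini-Hochberg adjustment over 15402 genes and a threshold of 0.05. Fold changes of members are unshrunk, with Wald standard errors and 95% intervals from the same fit. Those of other genes are edgeR's, with its prior count. Subunit ratios were compared with exact permutation tests (scipy 1.17.1, Python 3.11.15). Tested on simulated counts for IR against DKO over 15402 genes, the fit recovered 100 of 100 genes seeded at 4-fold and 86 of 100 at 2-fold, with 0 false calls. The simulated counts were drawn independently for each gene with the fit's own dispersions. The check therefore does not cover genes that move together from dish to dish, or differences between transduced lines. Alternatives were limma 3.58.1 voom TREAT, DESeq2 1.42.0, other filters, scaling, and sets of libraries.

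The 10 members and the gene lists were chosen with earlier results of these data known. All members are named. Of each list, genes with a set counterpart role and the 3 with the largest difference between IR, K1030R, and ∆CT and DKO and JMO were eligible to be named, and the 5 nearest genes were ranked by correlation of group means. *H2-T23*, *H2-T22*, *H2-T10*, and *Rfx5*, and the single markers, were added after their values were seen. The values of 1 listed gene are not reported here. Gene names came from a table that matched 51916 of 52962 rows, positions and 31-base words from GENCODE transcripts (GRCm38), and promoters from RefSeq (GRCm38.p6), which has no entry for *Tap2* and *Nlrc5*. Counts per gene limit the precision for *Psmb8* and *Psmb9*, which were under 10 CPM in every dish.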

Additional observations from a re-analysis of the deposited data

How the results depend on the processing

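For the number of members called, in 18 comparisons, each library of the groups compared was left out in turn, and scaling, filter, rounding, tool, threshold, minimum fold, block, and the libraries in the fit were changed one at a time. Fold changes of single members were recomputed for the comparisons between lines without insulin, and with insulin for *Nlrc5* in IR cells only. Of these 1926 alternative fold changes of members, 1832 kept direction and call, 33 lost the call, 50 gained it, and 11 reversed. No fold change of a member in IR, K1030R, or ∆CT against DKO reversed, nor did any of JMO against these lines. Of the subunit ratios, which are not part of this total, 1 reversed. The cause of the changes was not tested beyond what each setting does. Of members called between ∆CT and IR cells (main value 1), the test without a minimum fold gave 9, the threshold of 0.001 gave 0, the fit of only these 2 groups gave 0, and leaving out a library gave 0 to 2. Between K1030R and IR cells (main value 0), the count was 9 without a minimum fold, 1 without a filter (*Tap1*), and 1 with insulin libraries (*Nlrc5*, -1.13). It was 2 for JMO against DKO and 1 for ∆CT against K1030R without a minimum fold (main value 0 in both).

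Reversed values were all small. For ∆CT against K1030R with insulin libraries, *Tap2* was at -0.21, *Psmb8* at 0.26, and *Psmb9* at -0.31. With a library left out, the same comparison gave -0.079 to 0.14 for *Tap2*, -0.12 to 0.42 for *Psmb9*, and -0.38 to 0.040 for *Nlrc5*. JMO against DKO gave -0.047 to 0.14 for *Psmb8* and -0.060 to 0.041 for *Tapbp*. The log2 ratio of *Psmb10* to *Psmb7* in IR against DKO gave -0.073 to 0.022, the highest without DKO dish 3.

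The calls of *Tap2* and *Tapbp* against DKO were lost most often. Replicate numbers did not pair the dishes, since the deviations of same-numbered dishes had a median r of -0.00 (-0.11 to 0.10 over 100 pairs of libraries). With the replicate number as a block, *Tap2* in ∆CT against DKO was at -0.83 (edgeR adjusted p = 0.0562) and lost its call, and no other call of a member changed. Over all genes, the filter moved the counts of some comparisons by more than 1.5 times, as from 160 to 290 called between K1030R and IR cells and from 6 to 51 between ∆CT and K1030R cells without a filter. DESeq2 called 164 genes, limma voom TREAT 216, and edgeR 325 between JMO and DKO cells.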
